A study of Mus musculus with 54 samples.

Results

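EMD-/y myogenic progenitors, mouse muscle precursor cells that lack emerin, were followed over the first day of differentiation, and RNA from day 0 was compared with RNA from day 1. The comparison covers 6 of the 54 samples of the series, those of the untransduced EMD-/y line labelled T=0 and T=24, with 3 labelled replicates at each time, and every gene in the deposited table of these groups, which lists 17805 of the 19653 genes listed in any table of the series. The samples of the series are poly-A RNA from 6 lines of H2K progenitors at 3 times. The study also reported on another line and other times. It asked which transcripts change as progenitors differentiate and where a missing or mutant emerin alters this. The EMD-/y cells come from mice hemizygous for a null Emd allele on the X chromosome, and the wildtype cells, used below only to test where the change differs, carry an intact allele and received the same 2 media. At day 0 both lines had been kept in proliferation medium with 20% fetal bovine serum, chick embryo extract, and γ-interferon at 10% CO2, and at day 1 they had spent 24 h in differentiation medium with 5% horse serum, without interferon, at 5% CO2. H2K cells are immortalized conditionally, with a temperature-sensitive large T antigen whose promoter responds to interferon, so the proliferating state of these progenitors is maintained with interferon in the medium. Serum, interferon, CO2, and time changed together between both groups, and their effects cannot be told apart. The labels give the same temperature for both media and the study's methods a lower one for proliferating cells, so it is not settled whether temperature changed as well. Each line stands for 1 genotype in 1 cell line, and no second EMD-/y line was analysed here.

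Emerin is a protein of the inner nuclear membrane that binds lamins and chromatin regulators, and its loss causes X-linked Emery-Dreifuss muscular dystrophy. When myoblasts leave growth medium, they normally leave the cell cycle, switch on myogenin and MEF2 factors, produce sarcomere and calcium-handling proteins, and fuse into multinucleated myotubes. MyoD-family proteins bind E-boxes, late cell cycle promoters carry CHR elements, and interferon acts at GAS and ISRE elements.

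The deposited values are not levels per library, but the whole counts of all 6 libraries could be recovered from the digits of the tables. The 6 EMD-/y libraries held between 17.29 M and 18.58 M counts and between 15658 and 16027 genes with a read. All values below are these counts divided by the library's size factor, called normalised counts, and are given for libraries a, b, and c of a day in that order. These letters are arbitrary, since the labels do not tie a recovered library to a replicate number. The sources give 2 biological replicates with 3 technical replicates each, but not which of the 3 labelled replicates are separate cultures, so p-values measure only the spread between these libraries, which may be technical. Emd itself had 0, 3, and 1 counts at day 0 and 0, 0, and 0 counts at day 1, whereas each of the 6 wildtype libraries held between 1537 and 2034 counts. The transcript of the targeted gene therefore matched the EMD-/y label in all 6 libraries.

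A library of each day stood apart from the other two. At day 0, 1051 of 13286 tested genes in library c differed at least 2-fold from the mean of libraries a and b, 737 upward and 314 downward, and 218 differed that much between a and b. At day 1, 810 genes in library a differed at least 2-fold from the mean of b and c, 292 upward and 518 downward, beside 230 between b and c. A chi-square test of the counts put each pair of libraries beyond sampling noise, with a chi-square per degree of freedom of 4.2 for a and b at day 0 and 2.45 for b and c at day 1, but of between 35.5 and 42.8 for the pairs that include a library standing apart. All 6 libraries entered the fit as separate libraries, but the labels do not say whether the closer pair of a day came from 1 culture. Day 0 library c lay toward the day 1 libraries in muscle genes, and day 1 library a lay toward the day 0 libraries in muscle, cell cycle, and interferon genes, so counts of changed members of these lists are given with and without both libraries, and so are values of single genes where they moved by more than 1.5-fold or changed their call.

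A gene was taken as changed when limma's moderated test on log2(normalised count + 1) gave a Benjamini-Hochberg adjusted p under 0.05 and a change of at least 2-fold. A log2 fold change is day 1 minus day 0 throughout, and the ± after it is its standard error over n = 3 libraries a day. Of 13286 genes with a mean of at least 10, 2615 changed (19.7%), of which 1469 rose (11.1%) and 1146 fell (8.63%). Counts of list members below stand beside these shares. At least 4-fold changes were seen in 546 genes that rose and 383 that fell, and at least 8-fold changes in 189 and 179. The 3 libraries of day 1 lay above the 3 of day 0 in 4346 tested genes (32.7%) and below them in 4361 (32.8%). Libraries of both days overlapped in 60 of the 2615 changed genes. Without both libraries that stood apart, 1932 genes rose and 1426 fell, 2475 of the 2615 calls held, and 0 changed direction. The median log2 fold change over all tested genes was -0.001. In these cultures, fewer cells that express a gene and less of its RNA per cell cannot be told apart.

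**Figure D1:**
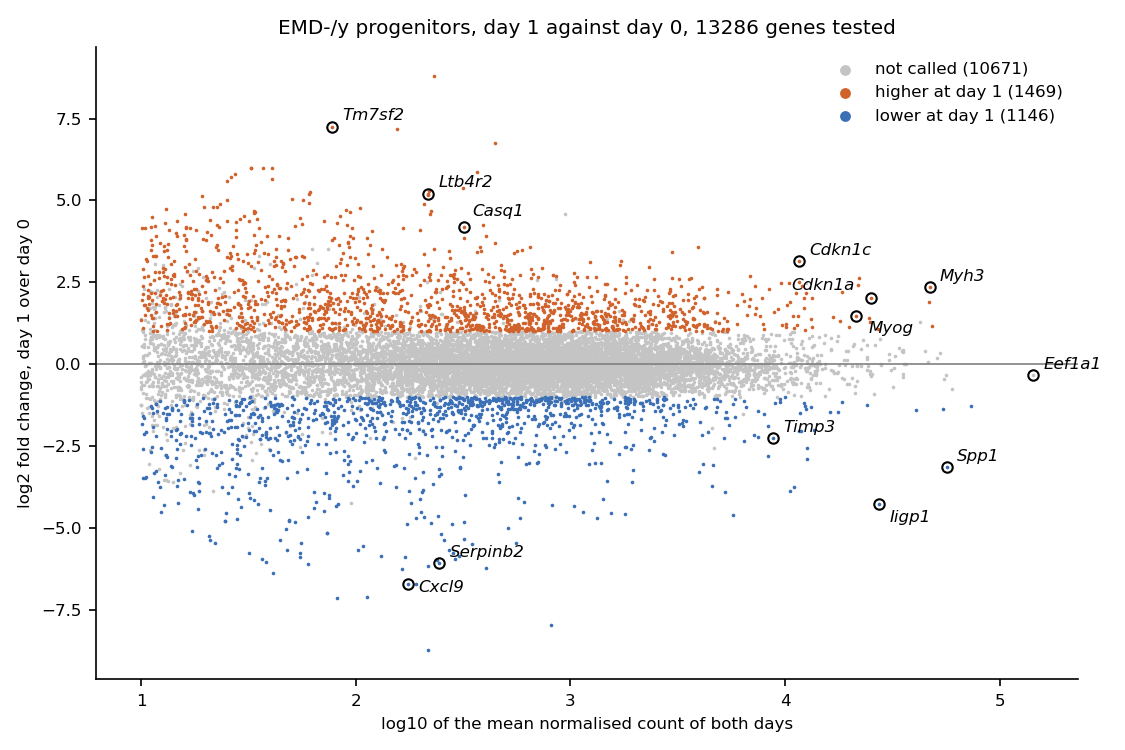
The day 1 over day 0 log2 fold change of EMD-/y progenitors (y axis) is plotted against the log10 of the mean normalised count over both days (x axis) for the 13286 tested genes. Orange points are the 1469 genes higher and blue points the 1146 genes lower at day 1, and grey points were not called.

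The promoter stretches printed here were picked among called genes of the main groups whose stretch holds the motif, so its presence there is not a result. Each is the 150 bases before the first listed RefSeq transcription start of a gene. They are written 5′ to 3′ on the gene's strand from GRCm38.p6, the build of the table's genes, with the named motif in capitals. Myoz2 (chr3:123034988-123035137, minus strand) is from the sarcomere genes and carries the E-box CAGCTG close to that start. Espl1 (chr15:102296143-102296292, plus strand) is from the mitosis genes and carries the CHR letters TTTGAA. In both genes the annotated span (up to 123035003 in Myoz2, from 102296254 in Espl1) already covers the motif. Gbp2 (chr3:142620513-142620662, plus strand) and Gbp7 (chr3:142530186-142530335, plus strand) are guanylate-binding proteins of the interferon response, the first with an ISRE (here GAAA, any 2 bases, GAAA on either strand) and the second with a pair of GAS motifs (TTCNNNGAA). The Gbp7 stretch also holds ISRE letters (tttcagtttc), which are left in small letters.
Myoz2: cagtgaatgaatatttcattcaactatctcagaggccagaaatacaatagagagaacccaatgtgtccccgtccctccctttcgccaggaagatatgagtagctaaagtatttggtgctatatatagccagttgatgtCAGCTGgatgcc
Espl1: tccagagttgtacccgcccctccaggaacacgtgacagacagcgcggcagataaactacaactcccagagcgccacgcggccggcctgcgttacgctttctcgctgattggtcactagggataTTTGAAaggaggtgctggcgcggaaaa
Gbp2: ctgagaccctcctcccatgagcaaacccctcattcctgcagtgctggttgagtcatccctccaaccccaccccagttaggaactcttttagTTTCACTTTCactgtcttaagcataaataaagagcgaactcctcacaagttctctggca
Gbp7: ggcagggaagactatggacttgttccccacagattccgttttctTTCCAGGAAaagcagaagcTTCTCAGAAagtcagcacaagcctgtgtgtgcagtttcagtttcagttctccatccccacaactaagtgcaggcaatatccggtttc

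These motifs were counted on both strands in the RefSeq promoters, 250 bases before to 50 bases after the start, of the 10065 tested genes that have one. For genes with several promoters the first listed was used. CAGCTG was present in 16 of 38 (42.1%) sarcomere promoters, 23% of promoters of genes that rose, 16% of those of genes that fell, and 15.3% of all. The second E-box, CACCTG, stood in 26.3%, 21.8%, 18.2%, and 16.6% of the same groups, and the CArG box in 5 of 38 (13.2%) sarcomere promoters and 1.34% of all. TTTGAA was found in 28 of 37 (75.7%) mitosis promoters and 11.6% of all promoters, while its share among all genes that fell was 12%. The E2F letters TTTCGCGC and TTTGGCGC were present in 5 of 31 (16.1%) and 6 of 31 (19.4%) promoters of DNA replication genes and in 0.646% and 0.984% of all. ISRE letters stood in 21 of 32 (65.6%) promoters of interferon response genes, 6.49% of those of genes that fell, 1.52% of those that rose, and 2.97% of all. GAS letters were found in 12 of 32 (37.5%) interferon response promoters and 6.76% of all. These shares describe letters in a window and were not tested.

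**Figure D2:**
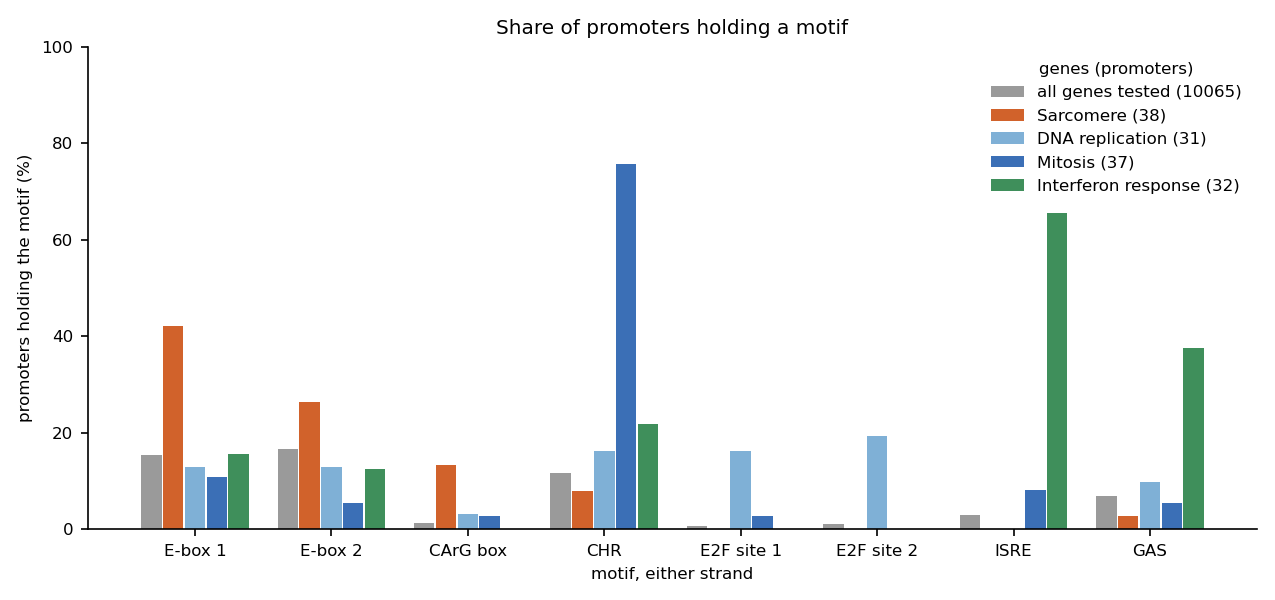
Bars give the percentage of promoters that hold each motif on either strand (y axis, 0 to 100%) for gene groups named in the legend with their number of promoters. The tallest bars are CHR in the mitosis list (75.7%) and ISRE in the interferon response list (65.6%).

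The myogenic regulators moved unevenly. Of 21 tested regulators, 5 rose (23.8%) and 1 fell (4.76%), beside 11.1% and 8.63% of all tested genes. Their median log2 fold change was 0.68 (0.70 without both libraries that stood apart, where 8 rose and 1 fell). Myog (chr1:134290004-134292548), the myogenin gene that marks commitment to differentiation, had 9888, 9189 and 16012 at day 0 and 33123, 30358 and 30507 at day 1. Myog thus rose 2.76-fold (log2 fold change 1.47 ± 0.21, adjusted p = 0.0015), and each day 1 library lay above each day 0 library. Mef2a, a MADS-box factor that acts with myogenin, had 5575, 5906 and 6621 at day 0 and 14398, 13883 and 14148 at day 1 and rose 2.35-fold (log2 fold change 1.23 ± 0.08, adjusted p = 9.3e-05). Mef2c had 1435, 1540.2 and 5982 at day 0 and 3310.4, 7644 and 8347 at day 1. Its days overlapped through both libraries that stood apart, and it did not pass the test (log2 fold change 1.33 ± 0.62, adjusted p = 0.11), while without them its log2 fold change was 2.43 and passed. Smyd1, a methyltransferase needed for sarcomere assembly, had 977, 886 and 2611 at day 0 and 3942, 5659 and 6044 at day 1 and rose 3.91-fold (log2 fold change 1.97 ± 0.42, adjusted p = 0.0075). Hdac9, a class IIa deacetylase that binds MEF2, was low at 34.9, 34 and 69.4 at day 0 and 89.1, 195 and 185 at day 1 and rose 3.33-fold (log2 fold change 1.74 ± 0.40, adjusted p = 0.01). Eya2, a transcriptional coactivator of muscle precursors, had 32, 34 and 15.9 at day 0 and 12, 5.1 and 4.15 at day 1 and fell 3.63-fold (log2 fold change -1.86 ± 0.50, adjusted p = 0.019). Smyd1 (2.65), Hdac9 (2.43), and Eya2 (-2.60) had these log2 fold changes without both libraries that stood apart. Mef2c (2.00, then called) had this value without day 0 library c alone. Eya2 lost its call without day 0 library a or b or day 1 library b or c (log2 fold change -1.72 to -1.59).

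The genes that define the progenitor state itself gave no call. Myod1, the master myogenic factor, had 15132, 14419.5 and 12162 at day 0 and 16735, 12189 and 12051 at day 1, with a log2 fold change of -0.04 ± 0.15 (adjusted p = 0.85). Pax7, the marker of satellite cells, had 928, 955 and 719 at day 0 and 899.9, 888 and 862 at day 1 and a log2 fold change of 0.04 ± 0.12 (adjusted p = 0.8). Both days overlapped for both genes, and with these errors a change of 2-fold would lie several standard errors away. These errors measure only the spread between libraries, which may be technical, and so do not bound a change between cultures. Myf5 was higher in each day 1 library, 325, 274 and 332 at day 0 and 343, 477 and 456 at day 1, but under 2-fold (log2 fold change 0.44 ± 0.15, adjusted p = 0.043).

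Among 23 tested progenitor and Id factors, 6 rose (26.1%) and 4 fell (17.4%), beside 11.1% and 8.63% of all tested genes, with a median of 0.05. Id proteins bind E proteins and keep MyoD from DNA, and 3 of the 4 that fell were of this family. Id3 had 4703, 4754 and 2864 at day 0 and 1013, 709 and 689.9 at day 1 and fell 5.05-fold (log2 fold change -2.34 ± 0.24, adjusted p = 0.00044). Id2 had 4667, 4587 and 2586 at day 0 and 947, 741 and 766 at day 1 and fell 4.68-fold (log2 fold change -2.23 ± 0.24, adjusted p = 0.00053), and Id1 had 2014, 1836 and 1377 at day 0 and 539.6, 441 and 448 at day 1 and fell 3.62-fold (log2 fold change -1.86 ± 0.16, adjusted p = 0.00023). In each of these 3 genes, day 0 library c was the lowest of its day and day 1 library a the highest, and no libraries overlapped. Twist2, a bHLH repressor of muscle genes, had 378, 384 and 248 at day 0 and 131, 75.4 and 85.1 at day 1 and fell 3.47-fold (log2 fold change -1.79 ± 0.26, adjusted p = 0.0017). The largest rises were in Notch3, a Notch receptor, with 1119, 1135 and 1044 at day 0 and 3926, 4278 and 4258 at day 1 (3.78-fold, log2 fold change 1.92 ± 0.07, adjusted p = 2.1e-05), and Heyl, a Notch target, with 396, 357 and 338 at day 0 and 1130.2, 1423 and 1462 at day 1 (3.66-fold, log2 fold change 1.87 ± 0.12, adjusted p = 9.6e-05). Sox8, a transcription factor of satellite cells, had 190.4, 182 and 149 at day 0 and 792, 526 and 523 at day 1 and rose 3.47-fold (log2 fold change 1.79 ± 0.19, adjusted p = 0.0005). Spry1, an inhibitor of receptor tyrosine kinase signals, had 147, 182 and 408 at day 0 and 549.6, 957 and 928 at day 1 and rose 3.54-fold (log2 fold change 1.82 ± 0.41, adjusted p = 0.0092). Spry1 (2.52) had this log2 fold change without both libraries that stood apart.

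**Figure D3:**
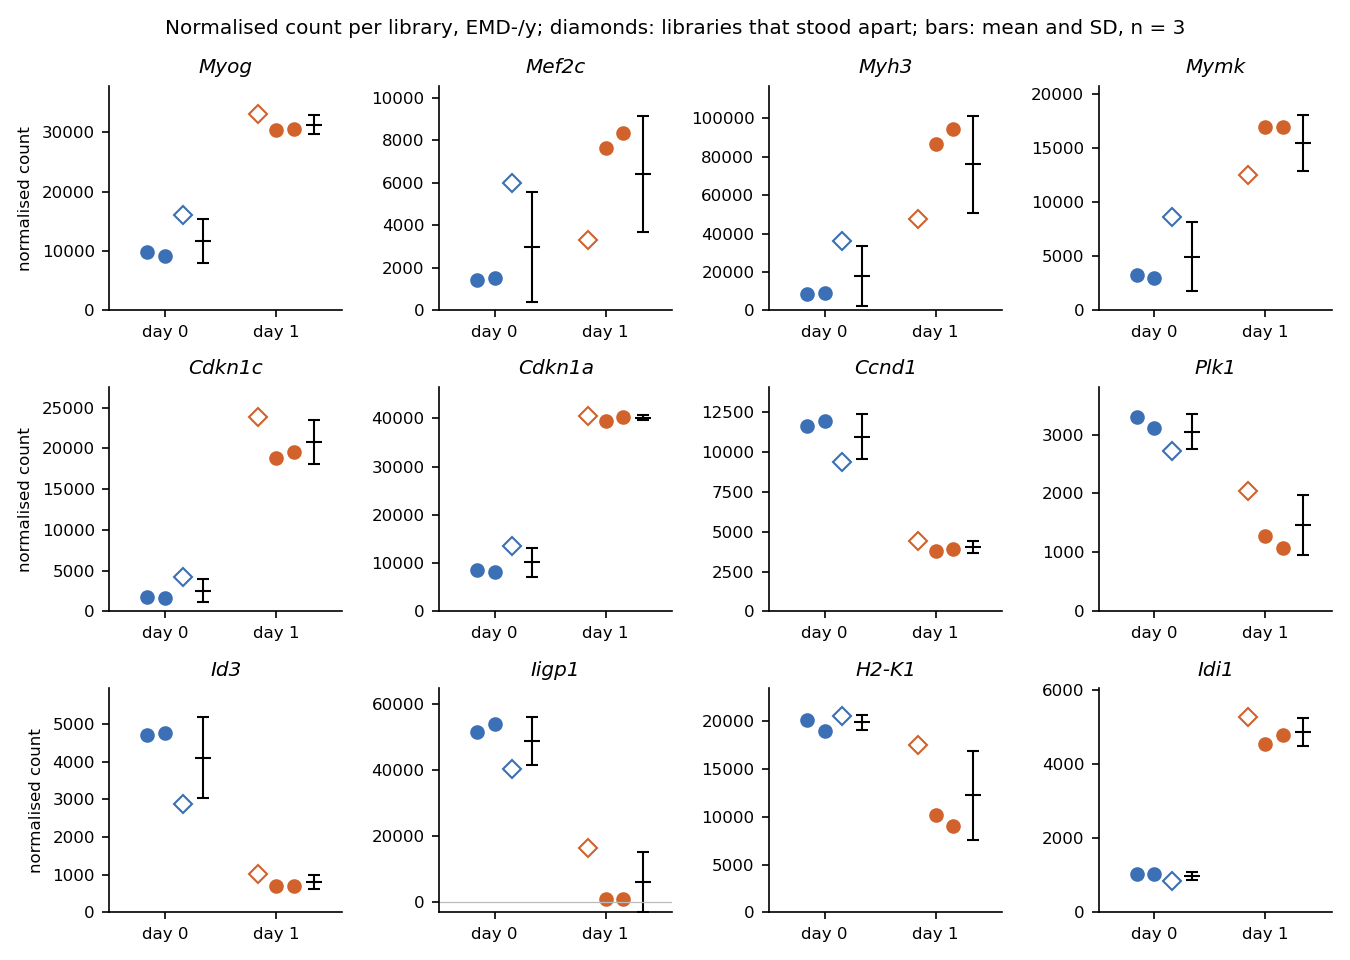
Each panel shows the normalised count (y axis, from 0 where no error bar crosses it) of 1 gene in the 6 EMD-/y libraries at day 0 (blue) and day 1 (orange), with the mean and SD (n = 3) beside the points. Diamonds mark day 0 library c and day 1 library a, which overlap for Mef2c and lie apart from both other libraries of their day in Myh3, Mymk, and Iigp1.

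Many sarcomere genes rose, and the 2 libraries that stood apart lay far from the others in them. Of 50 tested genes, 34 rose and the other 16 were not called, with a median log2 fold change of 2.00, and 49 of 50 had a positive value. Without both libraries that stood apart, 48 rose and the median was 2.93. The mean of the list on the log2 scale, centred on the 6 libraries, was -1.63, -1.57 and 0.34 at day 0 and 0.28, 1.25 and 1.34 at day 1, so that day 0 library c and day 1 library a were at about the same level. Myh3, embryonic myosin heavy chain, had 8529, 9276 and 36212 at day 0 and 47428, 86521 and 94497 at day 1 and rose 5.13-fold (log2 fold change 2.36 ± 0.58, adjusted p = 0.014). Myh7, slow myosin heavy chain, had 208, 240.0 and 1781 at day 0 and 1778, 4810.1 and 5136 at day 1 and rose 7.88-fold (log2 fold change 2.98 ± 0.87, adjusted p = 0.025) although day 0 library c lay just above day 1 library a. Its transcript is near-identical over part of its length to that of Myh6, whose levels were at most 37.4, and the sum of both was 209, 240.0 and 1804 at day 0 and 1791, 4847 and 5173 at day 1. Myl2, the slow regulatory light chain, had 0, 0 and 3.97 at day 0 and 8.01, 73.4 and 65.4 at day 1 (log2 fold change 4.38 ± 1.05, adjusted p = 0.012), a change from nearly no reads. Myoz2, a Z-disc protein whose promoter is shown above, had 41.5, 38.9 and 157 at day 0 and 210.2, 571 and 632 at day 1 and rose 6.59-fold (log2 fold change 2.72 ± 0.65, adjusted p = 0.012). Actc1, cardiac α-actin, which embryonic muscle uses, had 15272, 14461 and 31574 at day 0 and 58078, 78368 and 81763 at day 1 and rose 3.76-fold (log2 fold change 1.91 ± 0.32, adjusted p = 0.0027). Acta1, skeletal α-actin, had 16089.8, 15333 and 50160.5 at day 0 and 42863, 64604 and 67337 at day 1, with overlapping days and an adjusted p of 0.051 (log2 fold change 1.30, and 2.07 without both libraries). Myh3 (3.35), Myh7 (4.47), Myl2 (6.14), and Myoz2 (3.87) had these log2 fold changes without both libraries that stood apart. Myh3 (3.03), Myh7 (3.97), Myl2 (5.15), Myoz2 (3.36), and Acta1 (1.86, then called) had these values without day 0 library c alone. Myl2 (5.37) had this value without day 1 library a alone. Myh3 lost its call without day 0 library b (log2 fold change 2.04). Myh7 lost its call without day 0 library a or b or day 1 library b or c (log2 fold change 2.42 to 2.76). Myl2 lost its call without day 1 library b (log2 fold change 3.85).

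Genes for excitation and calcium handling behaved likewise. Of 27 tested, 17 rose and 10 were not called, with a median of 1.35, and 21 rose without both libraries (median 1.71). Ryr3, a calcium release channel of the sarcoplasmic reticulum found in young muscle, had 9.43, 6.8 and 12.9 at day 0 and 129, 149 and 169 at day 1 and rose 14.3-fold (log2 fold change 3.84 ± 0.27, adjusted p = 0.00012), and here the library standing apart at day 0 was close to the others. Hrc, a calcium-binding protein of the same store, had 231, 233 and 829.9 at day 0 and 2114, 3229.8 and 3633 at day 1 and rose 8.19-fold (log2 fold change 3.04 ± 0.51, adjusted p = 0.003). Casq2, the cardiac calsequestrin, which was counted in the sarcomere list, had 1148, 1065 and 3996 at day 0 and 6345, 13862 and 14776 at day 1 and rose 6.43-fold (log2 fold change 2.68 ± 0.57, adjusted p = 0.0076). Casq1, the skeletal calsequestrin, had 6.6, 10.7 and 178 at day 0 and 160.2, 726 and 832 at day 1. It rose 18.3-fold (log2 fold change 4.20 ± 1.26, adjusted p = 0.028), with day 0 library c above day 1 library a and a log2 fold change of 6.37 without both. Scn4a, the muscle sodium channel, had 36.8, 45.7 and 218 at day 0 and 214, 619.9 and 638 at day 1 and rose 6.05-fold (log2 fold change 2.60 ± 0.75, adjusted p = 0.024), also with overlapping days. Hrc (3.88), Casq2 (3.69), and Scn4a (3.91) had these log2 fold changes without both libraries that stood apart. Hrc (3.64), Casq2 (3.30), Casq1 (5.61), and Scn4a (3.39) had these values without day 0 library c alone. Casq1 (4.96) had this value without day 1 library a alone. Casq1 lost its call without day 0 library a or b or day 1 library b or c (log2 fold change 3.33 to 3.87). Scn4a lost its call without day 0 library a or b or day 1 library b or c (log2 fold change 2.12 to 2.35).

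Energy metabolism genes of muscle rose in 12 of 21 tested cases and fell in 1, with a median of 1.35 (18 and 1 without both libraries, median 1.86). Pygm, muscle glycogen phosphorylase, had 348, 318 and 1140.2 at day 0 and 4987, 5488 and 5596 at day 1 and rose 10.6-fold (log2 fold change 3.41 ± 0.47, adjusted p = 0.0013), and all 3 day 1 libraries were close together. Pgam2, a glycolytic mutase of muscle, had 198, 178 and 491 at day 0 and 1469.5, 1888 and 2036 at day 1 and rose 6.86-fold (log2 fold change 2.78 ± 0.38, adjusted p = 0.0013). Fabp3, which carries fatty acids, had 43.4, 39.8 and 186 at day 0 and 303, 546 and 611 at day 1 and rose 6.7-fold (log2 fold change 2.74 ± 0.61, adjusted p = 0.0092). Cox8b, a cytochrome oxidase subunit of muscle, had 7.54, 7.77 and 53.5 at day 0 and 93.1, 113 and 117 at day 1 and rose 6.77-fold (log2 fold change 2.76 ± 0.71, adjusted p = 0.016). Hk2, a hexokinase, was the gene that fell, with 1684, 1835 and 2268 at day 0 and 884, 712 and 788 at day 1 (2.42-fold, log2 fold change -1.27 ± 0.13, adjusted p = 0.00046). Pygm (4.05), Pgam2 (3.38), Fabp3 (3.77), and Cox8b (3.75) had these log2 fold changes without both libraries that stood apart. Pygm (4.0), Fabp3 (3.45), and Cox8b (3.64) had these values without day 0 library c alone. Cox8b lost its call without day 0 library a or b or day 1 library b or c (log2 fold change 2.30 to 2.73).

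In the dystrophin complex, which links the cytoskeleton to the matrix, 6 of 16 tested genes rose and 10 were not called, with a median of 0.77 (8 rose and 1 fell without both libraries, median 0.96). Among those that rose were the dystrobrevin Dtna, with 324, 279 and 475 at day 0 and 1019, 1407 and 1496 at day 1 (3.67-fold, log2 fold change 1.88 ± 0.23, adjusted p = 0.00085), the sarcoglycan Sgca, with 351, 398 and 662 at day 0 and 1482, 1443 and 1415 at day 1 (3.19-fold, log2 fold change 1.68 ± 0.23, adjusted p = 0.0012), and the syntrophin Sntb1, with 1312, 1411 and 2338 at day 0 and 4425, 4976 and 5394 at day 1 (3.01-fold, log2 fold change 1.59 ± 0.22, adjusted p = 0.0013). In all 3 the days did not overlap, and day 0 library c was the highest of its day.

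Of 27 tested fusion genes, 10 rose and 1 fell, with a median of 0.44 (11 and 1 without both libraries, median 0.41). Mymk (myomaker) and Mymx (myomixer) encode the membrane proteins that drive fusion. Mymk had 3262, 2965 and 8613 at day 0 and 12461, 16935 and 16899.6 at day 1 and rose 3.5-fold (log2 fold change 1.81 ± 0.40, adjusted p = 0.0091). Mymx had 227, 211 and 361 at day 0 and 1214, 1114 and 1111 at day 1 and rose 4.42-fold (log2 fold change 2.14 ± 0.20, adjusted p = 0.00033), with day 1 library a level with b and c. Adgrb1, an adhesion receptor that promotes fusion, had 2 counts over the day 0 libraries and 67 over those of day 1, a ratio of 35.3 with a 95% counting interval of 9.39 to 297 that covers counting error only. Elmo1, an activator of Rac in fusing cells, had 60.3, 69 and 28.8 at day 0 and 164, 148 and 159.8 at day 1 and rose 3.14-fold (log2 fold change 1.65 ± 0.32, adjusted p = 0.0054). Kirrel3, a nephrin-like adhesion protein, had 89.5, 91.3 and 71.4 at day 0 and 29, 19.4 and 24.9 at day 1 and fell 3.37-fold (log2 fold change -1.75 ± 0.22, adjusted p = 0.00096). Mymk (2.44) had this log2 fold change without both libraries that stood apart.

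**Figure D4:**
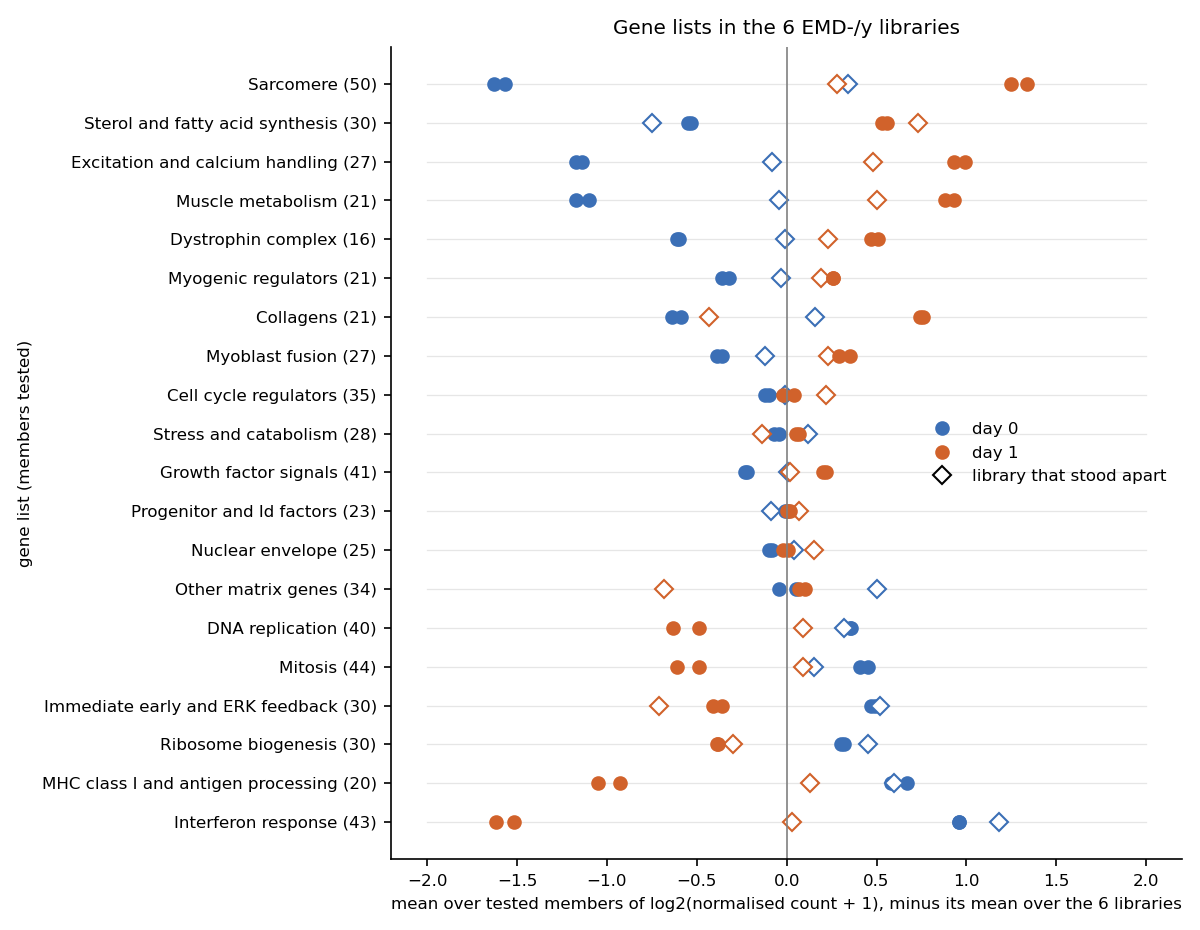
For each gene list (y axis, with the number of tested members), points give the mean over members of log2(normalised count + 1) in a library, minus its mean over the 6 libraries (x axis). In the sarcomere list day 0 library c (0.34) and day 1 library a (0.28), drawn as diamonds, lie together, whereas in the sterol list the 3 libraries of each day lie on their own side of 0.

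Some DNA replication genes fell, whereas with all 6 libraries the share of mitosis genes called was near that of all genes. Of 40 tested DNA replication genes, 9 fell (22.5%) and 31 were not called (median -0.69). Of 44 mitosis genes 4 fell (9.09%, beside 8.63% of all tested genes) and 40 were not called (median -0.72). Without both libraries, 18 replication and 22 mitosis genes fell, with medians of -0.93 and -1.0. The centred list means were 0.36, 0.35 and 0.32 at day 0 and 0.09, -0.49 and -0.63 at day 1 for replication and 0.41, 0.45 and 0.15 at day 0 and 0.09, -0.49 and -0.61 at day 1 for mitosis, with day 1 library a between the other day 1 libraries and day 0. Tk1, thymidine kinase, had 1538, 1472 and 1374 at day 0 and 731, 435 and 376 at day 1 and fell 2.96-fold (log2 fold change -1.57 ± 0.24, adjusted p = 0.0019). Cdc6, which loads the replicative helicase, had 898, 891 and 767 at day 0 and 576, 302 and 239.7 at day 1 and fell 2.45-fold (log2 fold change -1.29 ± 0.31, adjusted p = 0.012). Gmnn (geminin), an inhibitor of replication licensing, fell 2.38-fold, with 543, 471 and 437 at day 0 and 289, 173 and 165 at day 1 (log2 fold change -1.25 ± 0.23, adjusted p = 0.0039). Pold1, the catalytic subunit of DNA polymerase δ, fell 2.35-fold, with 1110.4, 1136 and 1259 at day 0 and 646, 442 and 428 at day 1 (log2 fold change -1.23 ± 0.16, adjusted p = 0.0012). The mitosis genes that fell, Plk1, Anln, Espl1, and Knl1, had log2 fold changes of -1.11, -1.07, -1.02, and -1.005, all just past the 2-fold threshold. Plk1, the mitotic polo-like kinase, had 3300.1, 3116 and 2726 at day 0 and 2040.1, 1272 and 1069.6 at day 1. Espl1 (separase), whose promoter is shown above, had 1417, 1392 and 1319.7 at day 0 and 976, 558 and 573 at day 1. Mki67, the usual marker of cycling cells, had 6895, 8514 and 6735 at day 0 and 5685, 3753 and 3605 at day 1, lower in each day 1 library but under 2-fold (log2 fold change -0.79 ± 0.19, adjusted p = 0.013). Mki67 (-1.06, then called) had this log2 fold change without both libraries that stood apart. Plk1 lost its call without day 1 library c (log2 fold change -0.91). Anln lost its call without day 1 library b or c (log2 fold change -0.98 to -0.95). Espl1 lost its call without day 1 library b or c (log2 fold change -0.89 to -0.88). Knl1 lost its call without day 0 library a or b or day 1 library b or c (log2 fold change -0.99 to -0.90).

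Regulators of the cycle changed in both directions. Of 35 tested, 7 rose (20%) and 5 fell (14.3%), beside 11.1% and 8.63% of all tested genes, with a median of 0.19. The same numbers rose and fell without both libraries. Cdkn1c (chr7:143458339-143461059), the CDK inhibitor p57, had 1747, 1688 and 4237 at day 0 and 23875, 18821 and 19584 at day 1 and rose 8.89-fold (log2 fold change 3.15 ± 0.35, adjusted p = 0.0006). Cdkn1a (chr17:29090979-29100722), the CDK inhibitor p21, had 8590.2, 8252 and 13647 at day 0 and 40381, 39500.0 and 40349.9 at day 1 and rose 4.05-fold (log2 fold change 2.02 ± 0.19, adjusted p = 0.00034). The retinoblastoma gene Rb1 had 1379, 1435 and 2152 at day 0 and 8445, 7701 and 7722 at day 1 and rose 4.9-fold (log2 fold change 2.29 ± 0.17, adjusted p = 0.00015). Ccng1, a cyclin induced by p53, had 6639, 6712 and 5139.9 at day 0 and 38968, 36914 and 37935 at day 1 and rose 6.2-fold (log2 fold change 2.63 ± 0.12, adjusted p = 3.8e-05). At day 1 the libraries of Cdkn1a, Rb1, and Ccng1 lay within a narrow band, library a included, while library a was the highest for Cdkn1c. Myc, the growth-promoting factor, had 2109, 2005 and 2358 at day 0 and 229, 461 and 409 at day 1 and fell 6.12-fold (log2 fold change -2.61 ± 0.25, adjusted p = 0.00037). Cdk6, a G1 kinase, had 4610.4, 5019 and 3156 at day 0 and 1702, 1163 and 1086 at day 1 and fell 3.24-fold (log2 fold change -1.69 ± 0.23, adjusted p = 0.0013), and its partner Ccnd1 (cyclin D1) had 11612, 11933 and 9351 at day 0 and 4446, 3788 and 3894 at day 1 and fell 2.7-fold (log2 fold change -1.44 ± 0.12, adjusted p = 0.00019). Cdc25c, a phosphatase that starts mitosis, had 551, 548 and 374 at day 0 and 302, 180.5 and 162 at day 1 and fell 2.33-fold (log2 fold change -1.22 ± 0.27, adjusted p = 0.0087).

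Most genes of the interferon response fell. Of 43 tested genes, 31 fell, 1 rose, and 11 were not called, with a median of -1.66 (-2.36 without both libraries, where 32 fell and 1 rose). Interferon was in the day 0 medium and not in that of day 1. Centred list means were 0.96, 0.96 and 1.18 at day 0 and 0.03, -1.52 and -1.62 at day 1, so that day 1 library a lay between the other day 1 libraries and day 0. Iigp1, an interferon-induced GTPase, was among the most abundant of the list with 51761, 54164 and 40508 at day 0 and 16569, 1074 and 919 at day 1 and fell 19.1-fold (log2 fold change -4.25 ± 1.06, adjusted p = 0.014). Day 1 library a held more than 10 times the level of b or c. Cxcl9, a chemokine that depends on γ-interferon, had 333, 331 and 372 at day 0 and 17, 0 and 1.04 at day 1 (log2 fold change -6.70 ± 1.00, adjusted p = 0.0018). Ciita, the activator of MHC class II genes, had 476, 472 and 325 at day 0 and 164, 3.06 and 6.22 at day 1 (log2 fold change -4.63 ± 1.31, adjusted p = 0.022), and Irf8, a transcription factor, had 1569.5, 1547 and 1245 at day 0 and 526, 38.7 and 17.6 at day 1 (log2 fold change -4.31 ± 1.14, adjusted p = 0.018). Mx2, an antiviral GTPase and the member that rose, was low with 2.83, 3.89 and 15.9 at day 0 and 21, 35.7 and 23.9 at day 1 (log2 fold change 2.00 ± 0.62, adjusted p = 0.03). Iigp1 (-5.74), Cxcl9 (-7.87), Ciita (-6.46), Irf8 (-5.84), and Mx2 (2.81) had these log2 fold changes without both libraries that stood apart. Mx2 (2.65) had this value without day 0 library c alone. Iigp1 (-5.60), Cxcl9 (-7.92), Ciita (-6.27), and Irf8 (-5.73) had these values without day 1 library a alone. Iigp1 (-3.63) and Cxcl9 (-5.83) had these values without day 1 library b alone. Iigp1 (-3.52) and Irf8 (-3.32) had these values without day 1 library c alone. Ciita lost its call without day 0 library a or b or day 1 library b or c (log2 fold change -4.55 to -3.60). Irf8 lost its call without day 0 library a or b or day 1 library b (log2 fold change -4.27 to -3.86). Mx2 lost its call without day 0 library a or b or day 1 library b or c (log2 fold change 1.57 to 2.07).

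MHC class I and antigen processing genes fell in 13 of 20 tested cases and 7 were not called, with a median of -1.21 (15 fell without both libraries, median -1.59). H2-T23, a nonclassical class I gene, had 2184, 2073 and 2183 at day 0 and 549, 175 and 177 at day 1 and fell 8.3-fold (log2 fold change -3.05 ± 0.43, adjusted p = 0.0014). The immunoproteasome subunits Psmb10 and Psmb8 cut peptides for presentation. Psmb10 had 3457, 3099.8 and 2979 at day 0 and 1360.4, 318 and 328 at day 1 and fell 6.07-fold (log2 fold change -2.60 ± 0.54, adjusted p = 0.007), and Psmb8 had 4975, 4579 and 4825 at day 0 and 2948, 979.8 and 867 at day 1 and fell 3.52-fold (log2 fold change -1.82 ± 0.44, adjusted p = 0.013). Erap1, which trims these peptides, had 3799.7, 4034 and 3554 at day 0 and 1837, 732 and 709.6 at day 1 and fell 3.85-fold (log2 fold change -1.94 ± 0.36, adjusted p = 0.0041). H2-K1, a classical class I heavy chain, had 20076, 18995 and 20562 at day 0 and 17513, 10168 and 9012 at day 1, below day 0 in all libraries but under 2-fold (log2 fold change -0.76 ± 0.24, adjusted p = 0.032). Psmb10 (-3.34) and H2-K1 (-1.03, then called) had these log2 fold changes without both libraries that stood apart. Psmb10 (-3.29) and H2-K1 (-1.05, then called) had these values without day 1 library a alone.

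Some targets of growth signalling fell. In the immediate early and ERK feedback list, 13 of 30 tested genes fell and 17 were not called, with a median of -0.81. Dusp5, a nuclear ERK phosphatase, had 620.3, 633 and 408 at day 0 and 66.1, 61.2 and 54 at day 1 and fell 8.89-fold (log2 fold change -3.15 ± 0.20, adjusted p = 8.8e-05). Plaur, the urokinase receptor, had 1253, 1212 and 1246 at day 0 and 130.1, 247 and 195 at day 1 and fell 6.68-fold (log2 fold change -2.74 ± 0.22, adjusted p = 0.00019). Etv4, an ETS factor downstream of ERK, had 871, 832 and 885 at day 0 and 134, 199 and 169 at day 1 and fell 5.19-fold (log2 fold change -2.38 ± 0.15, adjusted p = 8.7e-05). Hmga1, a chromatin architecture protein of growing cells, had 22354, 22065 and 20074 at day 0 and 5163, 3196 and 2949.6 at day 1 and fell 5.88-fold (log2 fold change -2.56 ± 0.21, adjusted p = 0.0002). In Plaur and Etv4, day 1 library a was the lowest of its day, farther from day 0 than b and c. Of 30 tested ribosome biogenesis genes, 8 fell and 22 were not called (median -0.84), with little scatter among libraries of a day. Dkc1, which modifies ribosomal RNA, had 2359, 2569 and 2538 at day 0 and 971, 858 and 786 at day 1 and fell 2.86-fold (log2 fold change -1.52 ± 0.09, adjusted p = 8.3e-05). Ncl, the major nucleolar protein nucleolin, had 24025, 25615 and 26184 at day 0 and 12274, 10989 and 10880.1 at day 1 and fell 2.22-fold (log2 fold change -1.15 ± 0.08, adjusted p = 0.00012). Mybbp1a and Wdr43, which take part in rRNA synthesis, fell 2.49-fold and 2.27-fold, with log2 fold changes of -1.31 and -1.19.

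Sterol and fatty acid synthesis genes rose in 18 of 30 tested cases, and 12 were not called, with a median of 1.45. The count was also 18 without both libraries (median 1.28), and the centred means were -0.55, -0.53 and -0.75 at day 0 and 0.73, 0.53 and 0.56 at day 1. Idi1, which isomerizes isoprenoid building blocks, had 1046, 1046 and 859 at day 0 and 5279.5, 4529 and 4792 at day 1 and rose 4.96-fold (log2 fold change 2.31 ± 0.10, adjusted p = 3.9e-05). Cyp51 and Msmo1 act in later steps from lanosterol to cholesterol. Cyp51 had 1545, 1531 and 1224 at day 0 and 6393, 5168 and 5322 at day 1 and rose 3.93-fold (log2 fold change 1.97 ± 0.12, adjusted p = 9.0e-05), and Msmo1 had 1021, 990.2 and 823 at day 0 and 3737, 2967 and 3022 at day 1 and rose 3.43-fold (log2 fold change 1.78 ± 0.12, adjusted p = 0.00012). Acss2, which makes acetyl-CoA from acetate, had 47.1, 64.1 and 70.4 at day 0 and 363, 323 and 387 at day 1 and rose 5.89-fold (log2 fold change 2.56 ± 0.17, adjusted p = 0.00012). Tm7sf2, a sterol reductase gene of the same pathway that was not in the list, was the gene with the largest rise among those with a symbol and at least 100 normalised counts in the higher group. It had 0, 0 and 0 at day 0 and 204, 128 and 134 at day 1, at least 53.5-fold higher against a floor of 3 counts per library. The span of Tm7sf2 overlaps that of Vps51, and reads of the overlap cannot be told apart without strand.

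Matrix genes were mixed, and here too the libraries that stood apart differed. Of 21 tested collagens, 2 rose (9.52%, beside 11.1% of all tested genes) and 19 were not called (median 0.63), but 12 rose without both libraries (median 1.13). Centred means of the collagens were -0.64, -0.59 and 0.16 at day 0 and -0.43, 0.74 and 0.76 at day 1, so that day 1 library a lay at the level of day 0 libraries a and b. Col4a5, a basement membrane chain, had 140.5, 123 and 138 at day 0 and 258, 531 and 639 at day 1 and rose 3.31-fold (log2 fold change 1.73 ± 0.32, adjusted p = 0.0045). Col27a1 was low with 48.1, 36.9 and 28.8 at day 0 and 49, 101 and 92.3 at day 1 (2.05-fold, log2 fold change 1.03 ± 0.33, adjusted p = 0.035). In the other matrix genes, 3 of 34 tested rose (8.82%) and 6 fell (17.6%, beside 8.63% of all tested genes), with a median of -0.25 (6 and 6 without both libraries, median 0.01). Timp3, an inhibitor of matrix metalloproteinases, had 14679.6, 15461 and 13513 at day 0 and 2971, 3076 and 3083 at day 1 and fell 4.77-fold (log2 fold change -2.25 ± 0.07, adjusted p = 2.1e-05), and Timp1 had 7452, 6924 and 11396 at day 0 and 1476, 1921 and 1938 at day 1 and fell 4.75-fold (log2 fold change -2.25 ± 0.21, adjusted p = 0.00031). Tnc (tenascin C) had 16360.3, 18471 and 21075 at day 0 and 3228, 5408 and 5313 at day 1 and fell 4.09-fold (log2 fold change -2.03 ± 0.21, adjusted p = 0.00048), whereas Mmp9, a gelatinase, fell 6.36-fold from a low level, 49, 49.6 and 25.8 at day 0 and 4, 4.08 and 9.34 at day 1 (log2 fold change -2.67 ± 0.45, adjusted p = 0.0028). The other gelatinase, Mmp2, moved the other way, with 2889, 2708 and 2279 at day 0 and 5322, 6466 and 6249.8 at day 1 (2.29-fold higher, log2 fold change 1.20 ± 0.12, adjusted p = 0.00036). Thbs2 and Vcan rose 3.45-fold and 2.15-fold. Thbs2 (2.65) had this log2 fold change without both libraries that stood apart. Col27a1 lost its call without day 0 library b or c or day 1 library b or c (log2 fold change 0.85 to 1.02). Thbs2 lost its call without day 0 library a or b or day 1 library b or c (log2 fold change 1.52 to 1.66).

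Among 41 tested growth factor genes, 12 rose (29.3%) and 8 fell (19.5%), beside 11.1% and 8.63% of all tested genes, with a median of 0.09. Igf2, which promotes myoblast differentiation, was among the 5 most abundant transcripts at day 1 and had 27015, 26635 and 37446 at day 0 and 66971, 64845 and 68607 at day 1. Igf2 rose 2.23-fold (log2 fold change 1.16 ± 0.15, adjusted p = 0.00094), with the day 1 libraries within a narrow band. Gdf15, a stress-induced TGF-β relative, had 33, 37.9 and 77.3 at day 0 and 272, 284 and 290.5 at day 1 and rose 6.03-fold (log2 fold change 2.59 ± 0.31, adjusted p = 0.00079). Mstn (myostatin), which limits muscle mass, had 15.1, 11.7 and 53.5 at day 0 and 84.1, 138 and 135 at day 1 and rose 5.25-fold (log2 fold change 2.39 ± 0.56, adjusted p = 0.011). The Wnt ligand Wnt9a had 354, 389.7 and 613 at day 0 and 1734, 1854 and 1929 at day 1 and rose 4.18-fold (log2 fold change 2.06 ± 0.20, adjusted p = 0.00037), and Wnt4 rose 5.03-fold from a low level (log2 fold change 2.33 ± 0.36, adjusted p = 0.0021). Sfrp1, a secreted Wnt antagonist, had 766, 833 and 708 at day 0 and 193, 163 and 126 at day 1 and fell 4.83-fold (log2 fold change -2.27 ± 0.17, adjusted p = 0.00014). Igfbp4, which binds IGFs, had 2467, 2288 and 1313 at day 0 and 629, 370.1 and 399 at day 1 and fell 4.3-fold (log2 fold change -2.10 ± 0.30, adjusted p = 0.0014). Smad6, an inhibitor of BMP signals, and Met, the receptor of hepatocyte growth factor, fell 3.38-fold and 2.68-fold. Mstn (3.27) had this log2 fold change without both libraries that stood apart. Mstn (3.03) had this value without day 0 library c alone.

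Of 25 tested nuclear envelope genes, 3 rose (12%, beside 11.1% of all tested genes), 1 fell (beside 8.63%), and 21 were not called (median -0.20), so that the list was near the background of all genes. Tmem38a, a cation channel of muscle nuclear and reticulum membranes, had 597, 588 and 1578 at day 0 and 4855, 5140.4 and 5148 at day 1 and rose 6.14-fold (log2 fold change 2.62 ± 0.37, adjusted p = 0.0015). Plpp7, a muscle nuclear membrane protein also called NET39, had 117, 109 and 279 at day 0 and 405, 627 and 659 at day 1 and rose 3.6-fold (log2 fold change 1.85 ± 0.39, adjusted p = 0.0071). Syne1 (nesprin-1), which ties nuclei to the cytoskeleton, had 1029, 1207 and 1793 at day 0 and 3200.3, 3204 and 3343 at day 1 and rose 2.49-fold (log2 fold change 1.31 ± 0.19, adjusted p = 0.0017). Nrm (nurim) had 312, 287 and 412 at day 0 and 202, 119 and 102 at day 1 and fell 2.46-fold (log2 fold change -1.30 ± 0.28, adjusted p = 0.0075). In the stress and catabolism list, 5 of 28 tested genes rose (17.9%) and 6 fell (21.4%), beside 11.1% and 8.63% of all tested genes (median 0.11). Foxo3, a factor that drives atrophy genes, had 752, 814 and 965 at day 0 and 3259, 3258 and 3467 at day 1 and rose 3.96-fold (log2 fold change 1.99 ± 0.10, adjusted p = 5.3e-05), and Ddit4, an inhibitor of mTORC1, had 459, 406 and 227 at day 0 and 1815, 1477 and 1415 at day 1 and rose 4.46-fold (log2 fold change 2.16 ± 0.27, adjusted p = 0.00085). Among antioxidant genes that NRF2 controls, falls were seen in Nqo1, with 2903, 2739 and 1383 at day 0 and 285, 275 and 267 at day 1 (8.04-fold, log2 fold change -3.01 ± 0.28, adjusted p = 0.0003), and in Gclm, with 1428, 1366 and 1159 at day 0 and 264, 211 and 216 at day 1 (5.71-fold, log2 fold change -2.51 ± 0.12, adjusted p = 5.1e-05). Plpp7 (2.50) had this log2 fold change without both libraries that stood apart.

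The largest changes over all genes were in genes of varied kinds, and of the 20 named here Cxcl9 is in a list. Among genes with a symbol and at least 100 normalised counts in the higher group, the 10 with the largest rise were Tm7sf2, Tmem254c, Ces2e, Sytl1, Ltb4r2, Aldh1l1, Kcnj15, Sec14l5, Nectin4, and Dpysl5, and the 10 with the largest fall were Tmem254b, Serpina3f, Hmga1b, Serpinb2, Prl2c2, H2ac24, Batf2, Lgr6, Mpeg1, and Cxcl9. Ces2e, a carboxylesterase, had 12.2, 10.7 and 5.95 at day 0 and 230.2, 546 and 516 at day 1 and rose 39.3-fold (log2 fold change 5.30 ± 0.41, adjusted p = 0.00017). Ltb4r2, a leukotriene B4 receptor, had 10.4, 15.6 and 6.94 at day 0 and 356, 467 and 453 at day 1 and rose 37.1-fold (log2 fold change 5.21 ± 0.29, adjusted p = 7.2e-05). Aldh1l1, a folate enzyme, had 2.83, 1.94 and 1.98 at day 0 and 110.1, 143 and 106 at day 1 (log2 fold change 5.21 ± 0.28, adjusted p = 6.7e-05), and the potassium channel gene Kcnj15 had 4.71, 9.72 and 19.8 at day 0 and 200.2, 530.1 and 535 at day 1 (log2 fold change 5.15 ± 0.57, adjusted p = 0.0006). Serpinb2, plasminogen activator inhibitor 2, had 439, 425 and 586 at day 0 and 10, 3.06 and 7.26 at day 1 and fell 66.8-fold (log2 fold change -6.06 ± 0.38, adjusted p = 9.0e-05). Lgr6, an R-spondin receptor, had 615, 669 and 229 at day 0 and 8.01, 12.2 and 10.4 at day 1 and fell 41.2-fold (log2 fold change -5.36 ± 0.43, adjusted p = 0.00019). Batf2 and Mpeg1, both induced by interferon in macrophages, had 1186, 1136 and 948 at day 0 and 65.1, 17.3 and 11.4 at day 1 and 443, 500.4 and 497 at day 0 and 38, 7.14 and 6.22 at day 1, respectively. H2ac24, a histone H2A gene, had 769, 691 and 597 at day 0 and 11, 16.3 and 15.6 at day 1 and fell 45.2-fold (log2 fold change -5.50 ± 0.19, adjusted p = 2.1e-05). The counts of H2ac24 were not summed with those of other histone genes, so a shift of reads between such genes was not tested. Serpina3f had 1853, 1871 and 923 at day 0 and 209, 0 and 0 at day 1. Its log2 fold change was -7.95 ± 2.03 (adjusted p = 0.015), and without day 1 library a its value depends on the pseudocount. Kcnj15 (6.09), Batf2 (-6.27), Mpeg1 (-5.95), and Serpina3f (-10.87) had these log2 fold changes without both libraries that stood apart. Batf2 (-6.17), Mpeg1 (-5.97), and Serpina3f (-10.53) had these values without day 1 library a alone. Serpina3f (-6.67) had this value without day 1 library c alone. Serpina3f lost its call without day 0 library a or b or day 1 library b (log2 fold change -7.78 to -6.67).

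Several of these genes have near-identical copies, between which the counting can move reads. Tmem254b had 515, 458 and 326 at day 0 and 0, 0 and 0 at day 1, at least 142-fold lower against the floor, and Tmem254c had 22.6, 21.4 and 4.96 at day 0 and 741, 575 and 540.5 at day 1. The sum with Tmem254a was 537, 479 and 346 at day 0 and 821, 624 and 599.7 at day 1, a log2 ratio of means of 0.58, so the opposite values of these 2 copies cannot be read as changes of 2 genes. Hmga1b had 521, 472 and 296 at day 0 and 11, 3.06 and 3.11 at day 1, and the sum with its copy Hmga1 was 22876, 22537 and 20369 at day 0 and 5174, 3199 and 2953 at day 1. The placental lactogen relatives Prl2c2, Prl2c3, and Prl2c5 summed to 2336, 2316 and 110.1 at day 0 and 58.1, 9.18 and 15.6 at day 1, with day 0 library c far below a and b. Serpina3f and Serpina3g, serine protease inhibitors, summed to 2330.2, 2359 and 1233 at day 0 and 269, 5.1 and 7.26 at day 1. A near-identical stretch of another transcript was found for 31 of the 150 named genes with a transcript, and 54 named genes overlap the span of another gene, from which reads cannot be told apart without strand. Among changed genes, 13 had 0 reads in all day 0 libraries, of which 5 have a symbol, and 11 had 0 reads in all day 1 libraries, of which 3 have a symbol.

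The most abundant transcripts traded places as well. A predicted gene with the highest level could not be recovered and is not ranked. Of the other genes, the highest normalised counts at day 0 were those of Eef1a1, Spp1, Actg1, Actb, and Vim, and at day 1 those of Eef1a1, Myh3, Actc1, Igf2, and Acta1, without correction for length. Spp1 (osteopontin), a secreted matrix protein, had 121028, 121636 and 62449 at day 0 and 15114, 9448 and 9396 at day 1 and fell 8.82-fold (log2 fold change -3.14 ± 0.31, adjusted p = 0.0004). The cytoplasmic actins Actb and Actg1 had 76465, 75569.5 and 82324 at day 0 and 30148, 30238 and 30027 at day 1 and 102731, 99304 and 109438 at day 0 and 44175, 42749 and 41706 at day 1, and they fell 2.59-fold and 2.42-fold. Per kilobase of transcript, the mean of Actb went from 40372 to 15575 and that of Actc1 from 13988 to 49785 normalised counts. The elongation factor gene Eef1a1 was under 2-fold lower, with 165163, 163317 and 152007 at day 0 and 124748, 126509 and 129626 at day 1 (log2 fold change -0.33 ± 0.10, adjusted p = 0.029), and so was the intermediate filament gene Vim (log2 fold change -0.75 ± 0.09, adjusted p = 0.00074).

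Markers of other cell types were examined beside those of muscle progenitors. The 8 markers of muscle progenitors were all tested, and summed to between 59373 and 75802 at day 0 and between 95665 and 106368 at day 1, with Cdh15 and Ncam1 rising 2.77-fold and 2.05-fold. Macrophage markers summed to between 77.3 and 102 at day 0 and between 170.2 and 195.7 at day 1, with Adgre1, C1qa, and C1qb at 0 in all 6 libraries. Of the 4 tested, Itgam rose, with 3.77, 3.89 and 3.97 at day 0 and 55.1, 75.4 and 90.3 at day 1 (log2 fold change 3.91 ± 0.29, adjusted p = 0.00015), and Csf1r fell, with 22.6, 23.3 and 25.8 at day 0 and 6.01, 7.14 and 6.22 at day 1 (log2 fold change -1.74 ± 0.29, adjusted p = 0.003). Itgam shares 3453 bases at 99.9% identity with Gm49368, and Csf1r shares 873 bases at 100% with Hmgxb3. Reads of these stretches cannot be assigned to 1 gene. Endothelial markers summed to between 50.6 and 58.3 at day 0 and between 59.1 and 75.4 at day 1, with Tie1 and Emcn at 0. Of the 3 tested, Tek rose and Kdr fell, with log2 fold changes of 2.29 and -1.51. Fibro-adipogenic markers summed to between 3728.5 and 4654 at day 0 and between 785 and 1404 at day 1, and Cfd was at 0. Of the 5 tested, 2 fell and 3 were not called (median -0.19), and Ly6a held most of the sum at day 0. Ly6a, which interferon also induces, had 3445, 3146 and 3722 at day 0 and 979, 198 and 119 at day 1 and fell 12-fold (log2 fold change -3.58 ± 0.72, adjusted p = 0.0058), and Pparg had 54.7, 38.9 and 35.7 at day 0 and 6.01, 2.04 and 6.22 at day 1 and fell 8.09-fold (log2 fold change -3.02 ± 0.44, adjusted p = 0.0017). Smooth muscle markers, which myoblasts share in part, summed to between 39227 and 96841 at day 0 and between 50980.0 and 78675 at day 1. Of these, 1 of 7 tested rose (Notch3, 14.3%). Schwann and neural markers summed to between 1437 and 2161 at day 0 and between 605.6 and 790.1 at day 1, with Sox10 at 0, and Tubb3 and Ngfr fell. Among all tested genes 11.1% rose and 8.63% fell, and the few calls in these lists are not results about a cell type. The part of other cells in the results above was not tested. Tek (1.70), Kdr (-2.10), Ly6a (-4.41), and Tubb3 (-0.88, no longer called) had these log2 fold changes without both libraries that stood apart. Ly6a (-4.47) had this value without day 1 library a alone. Ly6a (-2.96) had this value without day 1 library c alone. Ncam1 lost its call without day 0 library a or b or day 1 library b or c (log2 fold change 0.87 to 0.94). Kdr lost its call without day 0 library a or b or day 1 library b or c (log2 fold change -1.61 to -1.25). Ngfr lost its call without day 0 library b or day 1 library c (log2 fold change -1.23 to -1.20).

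The same transition in wildtype progenitors addresses which of these changes differ with emerin. Each genotype is 1 cell line, so a difference between the lines and an effect of emerin cannot be told apart. In wildtype, 1540 of 13141 tested genes rose and 1292 fell. A single fit of 12 libraries with line, day, and their interaction called 25 of 13308 genes (0.188%) at an adjusted p under 0.05, 12 with a higher and 13 with a lower change in EMD-/y, and 1279 had an unadjusted p under 0.05. Of the 25, 11 are genes predicted by the sequencing provider. In the lists above, 1 gene had a difference, Slc7a11. The gene encodes the cystine transporter and had 226, 236 and 249.9 at day 0 and 26, 36.7 and 48.8 at day 1 in EMD-/y, normalised within the 6 libraries, and 132, 154 and 216 at day 0 and 131, 115 and 120.4 at day 1 in wildtype. On the log2 scale Slc7a11 changed by -2.68 in EMD-/y and -0.42 in wildtype, a difference of -2.26 ± 0.32, adjusted p = 0.023. Values of all 6 libraries of a line are given for the other named differences as well.

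Tsku, a secreted proteoglycan, had 776, 727 and 789 at day 0 and 712, 753 and 762 at day 1 in EMD-/y and 663, 614 and 695 at day 0 and 346, 395 and 394 at day 1 in wildtype, so that the days overlapped in EMD-/y and lay apart in wildtype. The difference was 0.76 ± 0.11, adjusted p = 0.027. Tuft1 (tuftelin) had 79.2, 79.7 and 87.2 at day 0 and 88.1, 92.8 and 103 at day 1 in EMD-/y and 132.6, 137 and 123 at day 0 and 288, 311 and 326 at day 1 in wildtype (-1.02 ± 0.15, adjusted p = 0.029). Abcb1a, a drug efflux pump, had 5.66, 6.8 and 6.94 at day 0 and 54.1, 59.1 and 62.2 at day 1 in EMD-/y and 24.8, 24 and 50.4 at day 0 and 43.6, 45.2 and 31.4 at day 1 in wildtype (2.66 ± 0.41, adjusted p = 0.033). Tdrd5, a germline RNA-binding protein, was low in both, with 13.2, 5.83 and 10.9 at day 0 and 40, 37.7 and 27 at day 1 in EMD-/y and 21, 25.9 and 20.2 at day 0 and 10.7, 8.21 and 6.28 at day 1 in wildtype (3.09 ± 0.47, adjusted p = 0.03). H2ac24 had 638, 764 and 679.9 at day 0 and 0, 0 and 0 at day 1 in wildtype, so that its fitted difference (3.94 ± 0.26, adjusted p = 3.5e-05) depends on the pseudocount. A shift of reads between H2ac24 and other histone genes was not tested. Gbp2b had 1 count in all EMD-/y libraries together and 4077, 3488 and 1745 at day 0 and 211, 125 and 106 at day 1 in wildtype (4.71 ± 0.56, adjusted p = 0.0066), and no change can be measured in EMD-/y. Eif3j2 had 210.2, 230.3 and 228 at day 0 and 51, 42.8 and 47.7 at day 1 in EMD-/y and 1332, 1370.0 and 2194 at day 0 and 1563, 1641 and 1567 at day 1 in wildtype (-2.22 ± 0.23, adjusted p = 0.0022), but the sum with its copy Eif3j1 was 3080.5, 3203 and 3786 at day 0 and 2916, 3095 and 3134 at day 1 in EMD-/y. Likewise Hmga1b had 6328, 5862 and 9550.0 at day 0 and 1163, 1512 and 1234 at day 1 in wildtype (-3.71 ± 0.54, adjusted p = 0.027), and its sum with Hmga1 was 13539, 12718 and 20673 at day 0 and 2838, 3749.5 and 2848 at day 1 there.

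**Figure D5:**
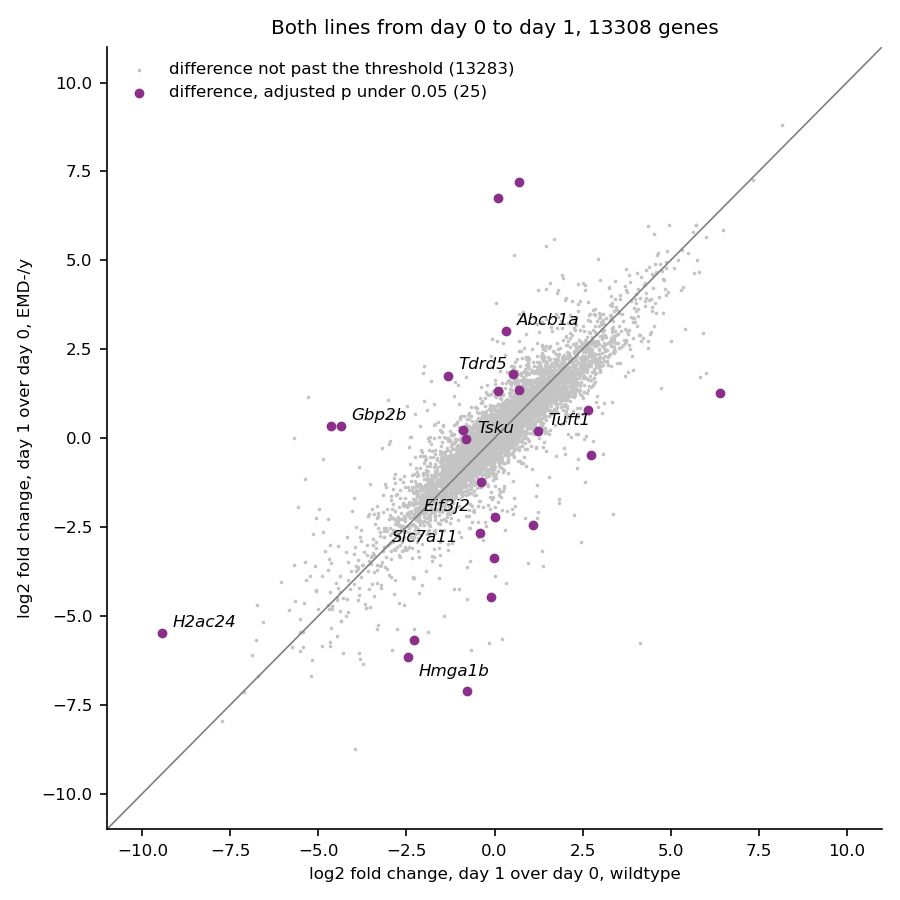
The day 1 over day 0 log2 fold change of EMD-/y (y axis) is plotted against that in wildtype (x axis) for the 13308 genes fitted in both lines, with the diagonal where both are equal. Purple points are the 25 genes whose change differed at an adjusted p under 0.05.

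The number of differences rested on the libraries that stood apart. In wildtype as well, 1 library of each day differed more from its group than the others did, with a standard deviation over genes of the log2 deviation from the group mean of 0.372 at day 0 and 0.405 at day 1, beside 0.281 to 0.301 in the other 4. In EMD-/y these values were 0.422 and 0.388, beside 0.283 to 0.3. Leaving out 1 library gave between 9 and 171 differences, with 171 when wildtype day 0 library c was left out, 47 and 58 without EMD-/y day 0 library c or day 1 library a, 31 without wildtype day 1 library a, and 9 to 16 when any 1 of the other libraries was left out. Without all 4 libraries that stood apart, 3287 differences were called and included the 25, but each group then held 2 libraries, whose spread may be technical. Of the 14 genes that were fixed by name and fitted in both lines, 0 passed limma's test with all 12 libraries (3 had an unadjusted p under 0.05) and 7 passed without the 4. Among these 7, the difference without the 4 libraries was 1.94 (adjusted p = 1.6e-06) for Pax7, -1.30 (adjusted p = 0.00074) for Cdkn1c, -0.91 (adjusted p = 0.00013) for Myog, -0.58 (adjusted p = 0.02) for Id1, -0.47 (adjusted p = 0.00072) for Myod1, 0.43 (adjusted p = 0.049) for Myf5, and -0.29 (adjusted p = 0.013) for Cdkn1a. With all 12 libraries, Pax7 changed by -1.44 on the log2 scale in wildtype and 0.04 in EMD-/y, a difference of 1.48 ± 0.39, adjusted p = 0.22. Pax7 had 444, 422 and 227 at day 0 and 191, 104 and 106 at day 1 in wildtype. Myog changed by 2.31 in wildtype and 1.47 in EMD-/y with all 12 libraries (-0.84 ± 0.30, adjusted p = 0.4), and Cdkn1c by 4.53 and 3.15 (-1.38 ± 0.44, adjusted p = 0.32). Medians of the lists in wildtype were on the same side of 0 as in EMD-/y for the groups described above, with 2.57 for sarcomere, -0.92 for mitosis, -1.82 for interferon response, and 1.15 for sterol genes.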

How the data were processed

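RNA of EMD-/y H2K progenitors at day 0 and day 1, and of wildtype progenitors for the interaction, was analysed. Per the labels and the study's methods, poly-A RNA was sequenced as paired-end 100-base reads, filtered with SOAPnuke, and mapped to mm10 with HISAT2 by the authors' provider. The counting tool and its use of strand are not given in the sources used here. The signal values as deposited by the authors are 2 columns per table, made by DESeq2 from size-factor normalised counts. Their mean is the mean over the 6 libraries of a table, and their split follows a shrunken fold change, so they are not plain group means, which the analysis had been planned on. Other deposited columns hold the authors' fold changes, p-values, and calls and were not used. The tables hold 0 columns per sample.

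Whole counts of all 54 libraries were recovered from the 27 tables, since each mean is a sum of whole numbers times 6 constants shared by all genes of a table. This gave counts for 19652 of 19653 genes, with a largest relative residual of 3.9e-15, and size factors recomputed from the counts differed from the recovered ones by at most 8.3e-05. A predicted gene with the highest level could not be recovered and is left out. Genes with 2 reads in a table had a mean equal to the sum of 2 single-read steps in 12219 of 12219 cases.

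Log2(normalised count + 1) of genes with a mean of at least 10 was fitted with limma 3.58.1 (trend) in R 4.3.3, on 6 libraries for the change and on 12 for the interaction. Adjusted p-values are Benjamini-Hochberg values over all genes tested. A gene was called at an adjusted p under 0.05 and at least 2-fold, an interaction at an adjusted p under 0.05. The fits were tested on simulated data with the same spread in all libraries, which does not cover libraries that stand apart. The gene lists and the genes named were chosen with earlier results of these data known. Named are up to 4 genes with the largest change in each direction of each list, 15 fixed genes, the 10 largest changes in each direction with a symbol and a mean of at least 100 in the higher group, the 5 smallest interaction p in each direction, and the 5 most abundant genes of each day. Some genes that these rules name are not reported here. Alternatives were another pseudocount, other filters, total count scaling, other thresholds, 1 spread over 12 libraries, no predicted genes, and leaving out each library. Leaving out the libraries that stood apart was added after seeing the data. Copies are alignments of at least 200 bases and 97% identity between transcripts (minimap2 2.31-r1302). Promoter sequences and gene positions are from RefSeq (GRCm38.p6). Scripts ran in Python 3.11.15 with scipy 1.17.1, pandas 2.3.3, numpy 2.4.6, and for plots matplotlib 3.10.9.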

Additional observations from a re-analysis of the deposited data

Results flagged for a closer look

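In 9 named genes the change from day 0 to day 1 differed between EMD-/y and wildtype progenitors by the interaction test of limma. On the log2 scale, as EMD-/y minus wildtype, the difference was 4.71 for Gbp2b, 3.94 for H2ac24, 3.09 for Tdrd5, 2.66 for Abcb1a, and 0.757 for Tsku. It was -3.71 for Hmga1b, -2.26 for Slc7a11, -2.22 for Eif3j2, and -1.03 for Tuft1. Gbp2b had 1 count in all EMD-/y libraries together, and H2ac24 had 0 counts in the wildtype libraries of day 1, so that both values depend on the pseudocount. For H2ac24, a shift of reads to or from other histone genes was not tested. Hmga1b and Eif3j2 share long near-identical stretches with Hmga1 and Eif3j1, and the share of a pair's reads given to each copy differed between lines. In EMD-/y, Eif3j2 held 210.2 of the 3080.5 normalised counts of the pair in day 0 library a, and in wildtype 1332 of 2087. No outlier test was run on groups of 3 libraries, in which the libraries that stood apart were found by their differences from the other libraries of a day.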

How the results depend on the processing

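The counts of changed genes kept within 1.5 times under another pseudocount, other filters, total count scaling, and 1 spread over 12 libraries. The same held for no predicted genes, an adjusted p under 0.01, and each library left out in turn. With 1 library left out the counts were 2242 to 2941 in all, 1213 to 1712 higher, and 1004 to 1269 lower. A mean of at least 50 gave 1974 in all and no filter 3217. The counts moved with the fold threshold. Without one, 7558 genes were called (3783 higher, 3775 lower), with at least 1.5-fold 4715 (2437 and 2278), and with at least 3-fold 1370 (812 and 558). Of 138 named genes that were called, 115 kept the call in every other fit at the same thresholds and 23 lost it in at least 1, among them Myh3, Myh7, Myl2, Casq1, Irf8, Ciita, Plk1, and Mx2. At 3-fold 33 of the 138 were not called and at an adjusted p under 0.01 25, and 84 kept the call in all these cases. The direction turned in 3 genes that were not called. With 1 library left out, the log2 fold change of Pax7 ranged from -0.097 to 0.105 and that of Myod1 from -0.187 to 0.048. Pax7 was -0.097 without day 0 library c and -0.106 without both libraries that stood apart, Myod1 was 0.021 without day 0 library a and 0.040 and 0.048 without day 1 library b or c, and Tsku was 0.013 without both. The 25 interaction calls became 42 without a filter, 12 without predicted genes, 9 to 171 with 1 library left out, and 3287 without the 4 libraries that stood apart. With a pseudocount of 4, a mean of at least 50, total count scaling, or at least 2-fold they were 33, 19, 26, and 22. No paired analysis was possible because the recovered libraries carry no replicate number. The cause of these shifts was not tested.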

Other observations

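Gene families chosen by symbol, after the values were seen, moved to different extents. Of 80 tested cytosolic ribosomal protein genes, 3 rose and 2 fell, with a median log2 fold change of -0.14. Of 38 tested proteasome subunits, 3 fell, and these were the immunoproteasome genes Psmb8, Psmb9, and Psmb10 (median -0.24). Complex I subunits rose in 1 of 36 tested cases (Ndufa13, median 0.26) and ATP synthase subunits in 1 of 17 (Atp5g2, median 0.06). Potassium channel genes rose in 9 of 29 tested cases and fell in 3, with a median of 0.62. Solute carriers rose in 27 and fell in 23 of 200 tested. Of 18 tested aminoacyl-tRNA synthetases, 2 fell, Wars, which interferon induces, and Vars (median -0.31). Histone genes rose in 1 and fell in 3 of 21 tested cases, and kinesins rose in 2 and fell in 1 of 31. These counts stand beside 11.1% of all tested genes that rose and 8.63% that fell.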
